A study of Mus musculus with 6 samples.

Results

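The mature miRNAs described here are mmu-miR-125b-5p and mmu-miR-125a-5p of the miR-125 family and mmu-miR-99a, mmu-miR-99b and mmu-miR-100, which make up the miR-99 family. They were taken by name from the probes of a mouse miRNA microarray, and 5 of its 599 mature miRNA probes carried these names. The study is known to have taken up miR-125b-5p in the juxtaglomerular cells that make renin, so what these arrays show for it is no separate support. The arrays measured the small RNA of kidney cortex from 6 C57Bl6 mice, 1 sample per mouse. The treated group held 3 mice kept on food with 0.05% sodium while drinking captopril, a blocker of angiotensin converting enzyme, at 0.5 g/L over 10 days, and the control group held 3 untreated mice. Treated replicates 2 and 3 and control replicates 1 and 2 came from males of 3.5 months, control replicate 3 from a female of 3.5 months, and treated replicate 1 from a female of 5 months. Treated replicate 2 and control replicates 1 and 3 were stained with Cy3, and treated replicates 1 and 3 and control replicate 2 with Cy5. Low sodium with captopril is a regimen known to raise renin and to recruit renin cells along the renal arterioles, and diet and drug were given together, so their effects cannot be told apart.

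A miRNA guides the Argonaute complex to messenger RNAs that pair with its seed, the stretch near its 5′ end, and lowers their translation and stability. MiR-125 is the mammalian counterpart of lin-4, a timer of larval development in Caenorhabditis elegans, and the miR-99 family is known for targeting the growth kinase mTOR. Members of both families are encoded next to let-7 genes, so that a primary transcript can carry a miR-99 family, a let-7 and a miR-125 hairpin.

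The target sequences printed in the array's own tables matched RefSeq mature miRNAs of the GRCm38.p6 build letter for letter for all 5 members. The members are shown with their rodent relative miR-351, because the seed (bases 2 to 8, in capitals) sorts them into the families and the bases outside it show how far a probe can tell them apart.
miR-125b-5p: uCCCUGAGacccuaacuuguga
miR-125a-5p: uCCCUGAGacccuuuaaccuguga
miR-351: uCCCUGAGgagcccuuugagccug
miR-99a: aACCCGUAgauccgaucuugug
miR-99b: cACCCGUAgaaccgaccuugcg
miR-100: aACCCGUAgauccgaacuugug
The seed CCCUGAG occurred in 3 of the 599 probes, miR-125a-5p, miR-125b-5p and miR-351, and ACCCGUA in 3, miR-99a, miR-99b and miR-100. MiR-125b-5p and miR-125a-5p have the same first 13 bases and lie 3 edits (single-base changes, insertions or deletions) apart. MiR-99a and miR-100 differ at 1 base, U16A, counted from the 5′ end with the miR-99a base first. MiR-99a and miR-99b differ at 4 bases. Part of the signal on a miR-99a or miR-100 probe can therefore come from its relative, which was not tested.

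Mature miR-125b-5p has 2 genes, Mir125b-1 at chr9:41581940-41581961 and Mir125b-2 at chr16:77646279-77646300, both on the plus strand, and the probe cannot separate their products. Mir100 lies upstream of Mir125b-1 at chr9:41531437-41531458, with a start-to-start distance of 50503 bases, and both fall within the span of the long non-coding RNA gene Mir100hg. Mir99a lies at chr16:77598940-77598961, 47339 bases from Mir125b-2, with Mirlet7c-1 between them. Mir99b (chr17:17830194-17830215), Mirlet7e and Mir125a (chr17:17830817-17830840) are packed within the protein-coding gene Spaca6, 623 bases from the start of miR-99b to that of miR-125a. Only the other strands of the miR-125b hairpins name the locus, and these have different sequences.
miR-125b-3p, of Mir125b-1: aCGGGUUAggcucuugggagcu
miR-125b*, of Mir125b-2: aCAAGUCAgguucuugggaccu
Neither was above background in any of the 6 samples, so these arrays did not show which gene the miR-125b-5p signal came from.

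Levels are log2 intensities after background correction and quantile normalisation, which gives every sample the same set of values and so leaves equal values where ranks are equal. A miRNA counted as above background in a sample where its log2 intensity exceeded the mean of the empty spots by 3 SD, and tests covered the 197 miRNAs that did so in 3 or more samples. All 5 members passed this filter, which did not use the groups. Between 132 and 229 miRNAs were above background in treated samples and between 127 and 199 in control samples. Empty spots were brighter in Cy3 (sample medians 219 to 459) than in Cy5 (34.4 to 51.2). Of the tubule markers, miR-192 and miR-194 were above background in all 6 samples and miR-204 in 3, while miR-215 was so in none. The smooth muscle markers miR-143 and miR-145 were above background in all 6, and of the endothelial markers miR-126-3p was so in 6 and miR-126-5p in 4. The fibroblast markers miR-199a-3p and miR-214 were above it in 6 and miR-199a-5p in 4. Of the 4 leukocyte markers, miR-150 was above it in 6 samples, miR-223 in 2, and miR-142-3p and miR-142-5p in none. Of markers of other tissues, miR-122 (liver) and miR-9 (brain) reached it in 3 samples, miR-1 (striated muscle) in 2, miR-133a and miR-206 (striated muscle) in 1 each and miR-124 (brain) in none. No scanner spot exceeded 59306, and the number of arrays limited the precision of every comparison.

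No member passed an adjusted p of 0.05 in limma with group and dye in the model (smallest adjusted p = 0.995), and neither did any of the 197 tested miRNAs, 0% of them. An unadjusted p under 0.05 was reached by no member and by 1 of the 197 (0.508%). Of the 5 fitted differences, 2 lay above 0, those of the miR-125 pair, against 47.2% of all tested miRNAs, and 3 below 0, those of the miR-99 family. Their median was -0.01 on the log2 scale, as was that of all tested miRNAs. In bulk cortex, more cells that contain a miRNA and more of it per cell cannot be told apart.

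**Figure D1:**
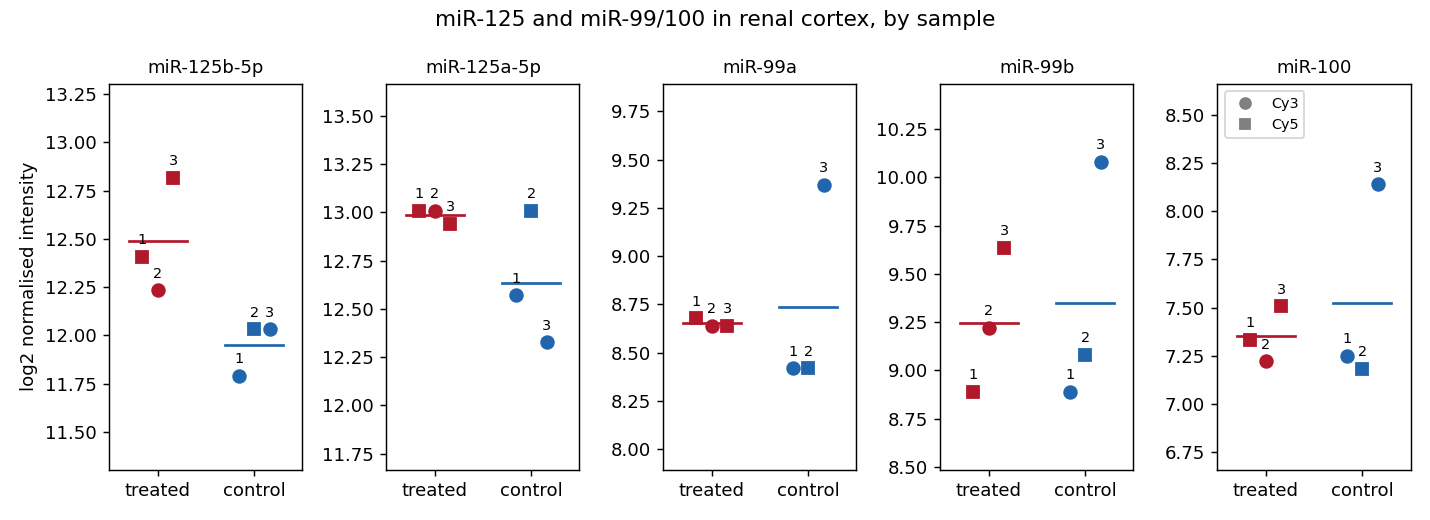
Log2 normalised intensity of each member in the 3 treated and the 3 control samples, each point 1 mouse with its replicate number, circles Cy3 and squares Cy5, horizontal lines the group means. Every panel spans 2 log2 units. The 3 treated samples lie above the 3 control samples for miR-125b-5p, and control replicate 3 is the highest sample for miR-99a, miR-99b and miR-100.

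MiR-125b-5p, which is abundant in smooth muscle and other mesenchymal cells, was among the brighter probes in every sample, ranking 25 to 29 of 599 in treated samples and 31 to 33 in control samples. Its log2 intensity was 12.41, 12.23 and 12.82 in treated replicates 1, 2 and 3, against 11.79, 12.03 and 12.03 in control replicates 1, 2 and 3. The groups did not overlap, with treated replicate 3 the highest sample and control replicate 1 the lowest. Such a separation with treated above control occurred for 5 of the 197 tested miRNAs (2.54%). The levels averaged 12.49 ± 0.30 in treated and 11.95 ± 0.14 in control samples (SD, n = 3 each). With the dye term, the treated minus control difference was 0.45 (SE 0.24, 95% interval -0.15 to 1.06), a 1.37-fold ratio, and did not pass (limma, adjusted p = 0.995). It was the fifth smallest unadjusted p of the 197 (0.115, limma).

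Because the groups did not overlap, the miR-125b-5p difference had to lie above 0 in every same-numbered pair and within each dye. These strata are therefore no further support, and only their sizes are described. Same-numbered treated and control samples, which carried opposite dyes, differed by 0.62, 0.20 and 0.79 in pairs 1, 2 and 3, and a higher treated value in all 3 pairs occurred for 28 of 197 miRNAs (14.2%). Only pair 2 matched in sex and age. Pair 1 set a treated female against a younger control male, and pair 3 a treated male against a control female. Within Cy3, treated replicate 2 lay 0.32 above the mean of the 2 controls, and within Cy5 the 2 treated samples lay 0.58 above control replicate 2. With the replicate number as a block, limma gave the same difference of 0.45 with a 95% interval of 0.01 to 0.90, an unadjusted p of 0.0472 and an adjusted p of 0.625. This block fit left 1 residual degree of freedom, so its interval leans on variance pooled over the tested miRNAs. The pairing itself was read from these same data. In that fit 15 of 197 miRNAs (7.61%) had an unadjusted p under 0.05 and 0% passed after adjustment. The 4 male samples of 3.5 months hold each group once in each dye. Among these the difference was 0.69 (95% interval -0.19 to 1.56, limma), resting on 1 residual degree of freedom.

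On the scanner's linear scale, before any correction, the 5 spots of miR-125b-5p averaged 6989 ± 755, 5384 ± 124 and 8501 ± 765 in treated replicates 1, 2 and 3 (SD over spots), against 6201 ± 237, 1297 ± 94.6 and 6766 ± 328 in control replicates 1, 2 and 3. The spread over spots was 2.30% to 10.8% of the mean. These values order the samples differently from the normalised ones, with treated replicate 2 below control replicates 1 and 3. They stood 186, 11.7 and 247 times above the median empty spot in treated replicates 1, 2 and 3, against 21.4, 25.4 and 30.9 times in control replicates 1, 2 and 3. The median of all tested miRNAs stood 5.34, 1.37 and 4.87 times above it in treated replicates 1, 2 and 3. In control replicates 1, 2 and 3 that median stood 2.11, 1.72 and 2.01 times above it. Such ratios also depend on the empty spots, which were dimmer in Cy5, and are not read as a group difference. In the authors' deposited table of processed intensities, miR-125b-5p read 5409, 4561 and 7150 in treated replicates 1, 2 and 3, against 3531, 3969 and 6082 in control replicates 1, 2 and 3. There the groups overlapped, since treated replicates 1 and 2 lay below control replicate 3, and the dye-adjusted difference was 0.31 on the log2(value + 1) scale.

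Among markers of red blood cells, miR-451 separated the groups as miR-125b-5p did, and miR-486 and miR-144 did not. The summed level of the erythroid markers miR-451, miR-486 and miR-144 ran from 11.04 to 11.24 in treated and from 9.34 to 10.78 in control samples on the log2 scale. MiR-144 stayed within background throughout, and the other 2 lay 0.80 (miR-451) and 0.89 (miR-486) higher in treated samples without passing (limma, adjusted p = 0.995 for each). The part of red blood cells in the miR-125b-5p difference was not tested. The summed level of the smooth muscle markers miR-143 and miR-145 overlapped between the groups, at 12.14 to 12.53 in treated and 11.86 to 12.87 in control samples.

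MiR-125a-5p, the product of the Mir99b, Mirlet7e and Mir125a cluster and the brightest of the 5 probes, had log2 intensities of 13.01, 13.01 and 12.94 in treated replicates 1, 2 and 3, against 12.57, 13.01 and 12.33 in control replicates 1, 2 and 3. The treated samples lay close together, and control replicate 2 reached their level while the 2 other controls lay below it. This closeness is one of rank, at 22, 22 and 23 of 599 in treated replicates 1, 2 and 3 and 22 in control replicate 2. Before correction its spots averaged 11541, 9716 and 9613 in treated replicates 1, 2 and 3, against 8885, 2934 and 7256 in control replicates 1, 2 and 3. The means were 12.98 ± 0.04 in treated and 12.63 ± 0.34 in control samples (SD, n = 3 each). The difference was 0.26 (SE 0.25, 95% interval -0.35 to 0.88; limma, adjusted p = 0.995). The dyes disagreed, with 0.56 within Cy3 and -0.03 within Cy5, and without treated replicate 2 the dye-adjusted difference was -0.02. In the authors' deposited table miR-125a-5p read 9096, 8592 and 8390 in treated replicates 1, 2 and 3. The control replicates read 5307, 7515 and 7428 in that order. There the groups did not overlap, unlike those of miR-125b-5p, and how many other miRNAs separated so was not counted. The dye-adjusted difference on the log2(value + 1) scale was 0.33 and did not pass (limma, adjusted p = 0.998). The third probe with this seed, miR-351, lay near background, above it in 2 of 3 treated and 2 of 3 control samples. Its levels were 7.14, 7.17 and 7.65 in treated replicates 1, 2 and 3, against 7.003, 7.06 and 7.95 in control replicates 1, 2 and 3, a difference of 0.01 (SE 0.37; limma, adjusted p = 0.995).

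**Figure D2:**
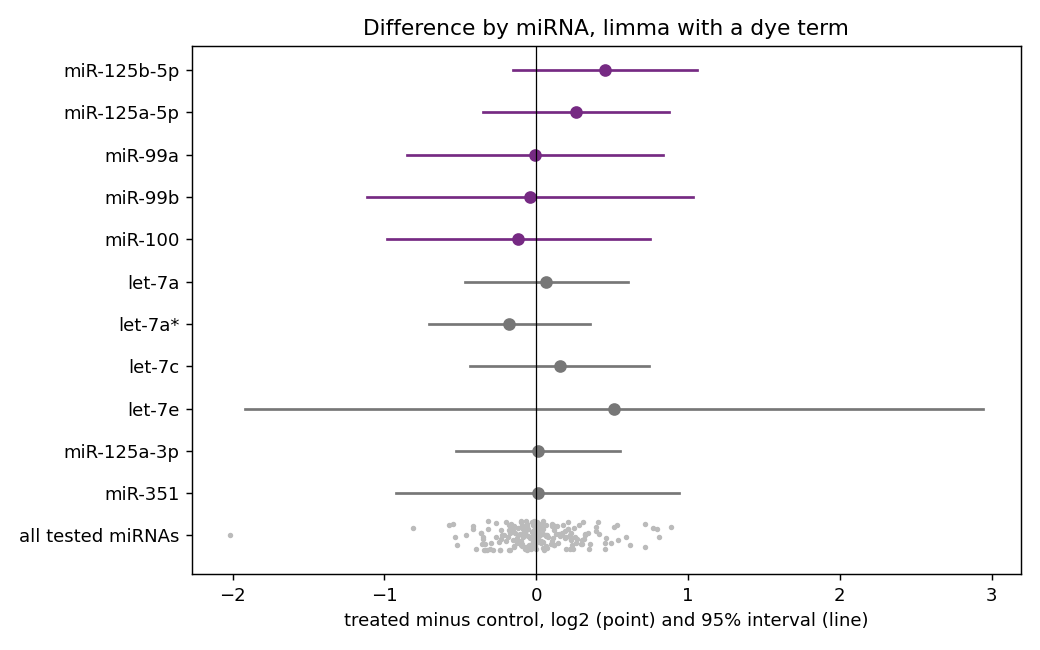
Treated minus control difference (log2) of the 5 members in purple and of the tested relatives and let-7 cluster partners in grey, as points with 95% intervals from limma with a dye term. The bottom row shows the differences of all 197 tested miRNAs as dots, spread vertically only for legibility. Every interval shown includes 0, and that of let-7e, -1.92 to 2.94, is the widest.

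The 3 members of the miR-99 family had no treated minus control difference that exceeded the spread between mice, and control replicate 3 stood apart for each. MiR-99a had log2 intensities of 8.68, 8.64 and 8.64 in treated replicates 1, 2 and 3, against 8.42, 8.42 and 9.37 in control replicates 1, 2 and 3. MiR-99b read 8.89, 9.22 and 9.63 in treated replicates 1, 2 and 3, against 8.89, 9.08 and 10.08 in control replicates 1, 2 and 3. For both miRNAs the highest sample of the 6 was control replicate 3. MiR-100 read 7.33, 7.22 and 7.51 in treated replicates 1, 2 and 3, against 7.25, 7.18 and 8.14 in control replicates 1, 2 and 3. It was not above background in control replicate 2, and its spots stood only 1.20 to 3.17 times above the median empty spot in treated samples and 1.27 to 2.20 times in control samples. The groups overlapped for all 3.

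The group means of miR-99a were 8.65 ± 0.02 in treated and 8.74 ± 0.55 in control samples (SD, n = 3 each). The differences in limma were -0.01 for miR-99a (95% interval -0.85 to 0.84), -0.04 for miR-99b (-1.12 to 1.03) and -0.12 for miR-100 (-0.98 to 0.75), each with an adjusted p = 0.995. Each interval holds differences of more than 1.5-fold in both directions. Without control replicate 3, the 3 differences turned to 0.19, 0.24 and 0.12 in that order, and among the 4 male samples they were 0.19, 0.43 and 0.13, none of which passed (limma, adjusted p = 1.000 in both fits). Pairs 1 and 2 gave 0.26 and 0.22 for miR-99a, 0.00 and 0.14 for miR-99b, and 0.08 and 0.04 for miR-100. Pair 3, which holds control replicate 3, gave -0.73, -0.45 and -0.63 for the same 3 miRNAs. Control replicate 3 was the only female of the control group, and within this group sex cannot be told apart from the mouse. In treated replicate 1, the other female, the 3 miRNAs deviated by -0.02, -0.41 and -0.11 from their own means over the 6 samples, against 0.67, 0.78 and 0.70 in control replicate 3. The summed levels of the tubule markers (13.18 to 13.65 in treated and 13.46 to 14.16 in control samples) and of the smooth muscle markers given above were also highest in control replicate 3. So was that of the endothelial markers, at 14.21, of which miR-126-3p was highest there and miR-126-5p was not. Of the tubule markers, miR-192 and miR-194 were highest there, and miR-204 and miR-215 were not. The summed erythroid and leukocyte markers were lowest in control replicate 3, at 9.34 and 9.12. Of the leukocyte markers, miR-150 was lowest there, and miR-142-3p, miR-142-5p and miR-223 were not. The part of these cell types in the levels of the miR-99 family was not tested.

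**Figure D3:**
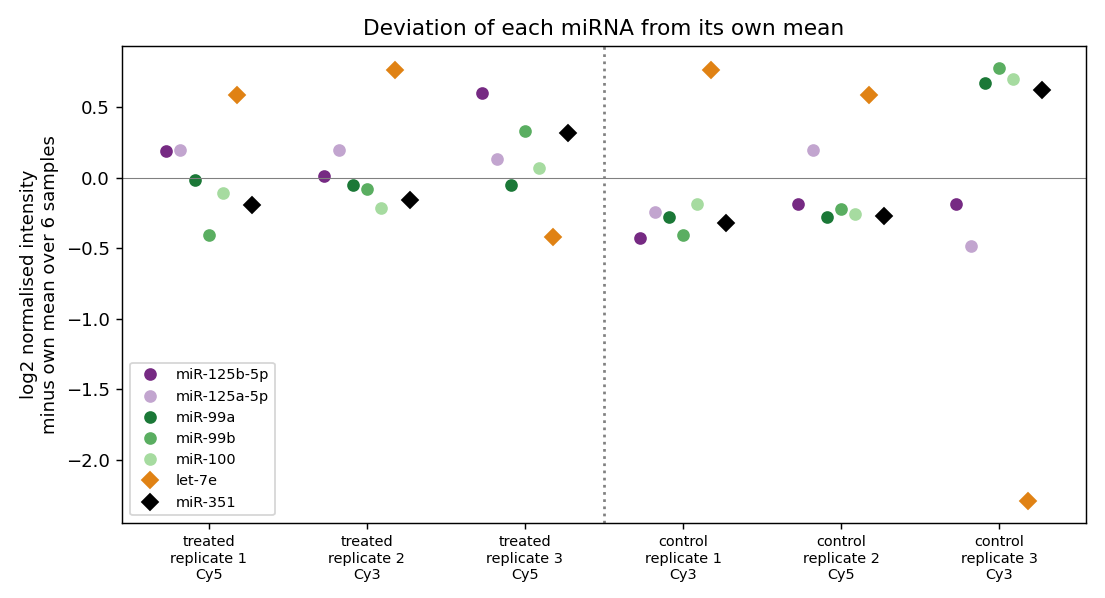
Log2 normalised intensity of each miRNA minus its own mean over the 6 samples, circles the 5 members and diamonds miR-351 and let-7e, with the treated samples left of the dotted line. In control replicate 3, miR-99a, miR-99b, miR-100 and miR-351 lie 0.63 to 0.78 above their means, miR-125b-5p and miR-125a-5p deviate by -0.19 and -0.48, and let-7e by -2.29.

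Of the 10 other probes of these families and clusters on the array, 6 were tested and none passed. The let-7 partners of the clusters were bright, and each of let-7a, let-7c and let-7e was lowest in control replicate 3. Their sequences are printed because let-7e differs from let-7a at 1 base and yet varied more across the samples. Let-7a had the highest mean level of all tested miRNAs, where quantile normalisation leaves little room to vary. In the deposited table of processed intensities let-7a ran from 32101 to 58192 and let-7e from 7828 to 30205.
let-7a: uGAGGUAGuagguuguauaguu
let-7c: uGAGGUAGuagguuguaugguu
let-7e: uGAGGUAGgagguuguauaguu
Let-7e, encoded between miR-99b and miR-125a, had log2 intensities of 14.56, 14.74 and 13.55 in treated replicates 1, 2 and 3, against 14.74, 14.56 and 11.68 in control replicates 1, 2 and 3. Both samples numbered 3 were low, control replicate 3 more than treated replicate 3, in the same control sample in which miR-99b of the same cluster was highest. The difference was 0.51 (SE 0.97, limma, adjusted p = 0.995). Let-7c lay at 15.23 ± 0.04 in treated and 15.02 ± 0.26 in control samples, and let-7a at 15.45 in each treated sample and at 15.36 ± 0.16 in control samples (SD, n = 3 each). The let-7a and let-7c probes also take up the products of genes outside these clusters. Of the passenger strands, miR-125a-3p exceeded background in 4 samples and averaged 6.78 ± 0.09 in treated and 6.76 ± 0.13 in control samples, a difference of 0.01 (SE 0.22, limma, adjusted p = 0.995). Let-7a* differed by -0.18 (SE 0.21), and miR-99b*, miR-125b*, miR-125b-3p and let-7c-1* were not tested.

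By profile over the 6 samples, no member had its own cluster partner as the most alike member. The miR-125b-5p probe mixes the products of 2 clusters, and the miR-99a and miR-100 probes may share signal. Whether the members of a cluster are expressed together was therefore not tested. Likeness was measured as the root mean square difference between the log2 levels of 2 miRNAs over the 6 samples, each centred on its own mean, so that smaller values mean more alike profiles. All values share the same 6 arrays and their normalisation. For miR-99a, the most alike of all tested miRNAs was miR-100 (0.10), which differs from it by the single base and stems from another cluster. Outside the members, miR-99a was nearest to miR-31 (0.10), miR-26a (0.12) and miR-30d (0.13). Outside the members, miR-100 was nearest to the same 3 miRNAs, miR-30d (0.06), miR-31 (0.06) and miR-26a (0.10), and miR-99a ranked 3 among all tested miRNAs by likeness to it. MiR-31 averaged only 6.65 on the log2 scale, near background, which limits its profile. MiR-99b lay nearest to miR-106b (0.10), miR-194 (0.10) and miR-181a (0.11), and its closest member, miR-100 (0.20), ranked 11 among all tested miRNAs.

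MiR-125a-5p was nearest to let-7c (0.10), miR-151-5p (0.11) and miR-10b (0.12), and its closest family member, miR-125b-5p (0.30), ranked 49 among the tested miRNAs by likeness to it. MiR-125b-5p had no close neighbour: the nearest were miR-331-3p (0.20), miR-744 (0.23) and miR-30a* (0.26), against an SD of 0.36 of its own level over the 6 samples. Of these, miR-331-3p averaged only 6.81 and miR-744 7.34 on the log2 scale, and nearness to background limits the profiles of such dim probes. MiR-125a-5p was the member most like miR-125b-5p and ranked 8 among the tested miRNAs.

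Whether the members differed from each other in their treated minus control difference was asked by subtracting the log2 level of 1 member from that of another within each sample, for all 10 pairs. With 3 samples against 3, the exact two-sided permutation test cannot give less than p = 0.10. That smallest value was reached for miR-125b-5p minus miR-99b and for miR-125b-5p minus miR-100, both with an adjusted p = 0.50 over the 10 pairs, so no difference between members passed. MiR-125b-5p minus miR-99b was 3.52, 3.01 and 3.19 in treated replicates 1, 2 and 3, against 2.90, 2.95 and 1.95 in control replicates 1, 2 and 3. The groups did not overlap, and the contrast was 0.64 higher in treated samples, 0.59 within Cy3 and 0.40 within Cy5. With cyclic loess and with the deposited processed values it was 0.45 and 0.43, and without control replicate 3 it was 0.40, each with p = 0.20 in the exact permutation test. MiR-125b-5p minus miR-100 was 5.08, 5.01 and 5.31 in treated replicates 1, 2 and 3, against 4.54, 4.85 and 3.89 in control replicates 1, 2 and 3. In control replicate 2 miR-100 was not above background, so 4.85 is only a lower bound, and with it the separation of the groups by this contrast is not established. The exact permutation p of this contrast was also 0.20 with the median of spots and with the deposited processed values. Control replicate 3 was the lowest sample of both contrasts, and these contrasts use the same miR-125b-5p values.

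MiR-125b-5p minus miR-99a, its partner on chromosome 16, differed by 0.62 (exact two-sided permutation test, p = 0.20, adjusted p = 0.67). Within the miR-125 pair, miR-125b-5p minus miR-125a-5p differed by 0.19 (exact two-sided permutation test, p = 0.50, adjusted p = 0.78), with -0.24 within Cy3 and 0.62 within Cy5. Within the miR-99 family the 3 contrasts lay between 0.02 and 0.09. MiR-99a minus miR-100 was 1.35, 1.42 and 1.13 in treated replicates 1, 2 and 3, against 1.17, 1.24 and 1.23 in control replicates 1, 2 and 3, where the value of control replicate 2 is again a lower bound. Its SD was 0.15 in treated and 0.04 in control samples, against 0.02 and 0.55 for miR-99a alone and 0.14 and 0.53 for miR-100 alone. The high levels of control replicate 3 do not appear in this ratio, since both miRNAs were high there. Probes differ in how well they bind, so these contrasts are read between samples and not as ratios of abundance.

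**Figure D4:**
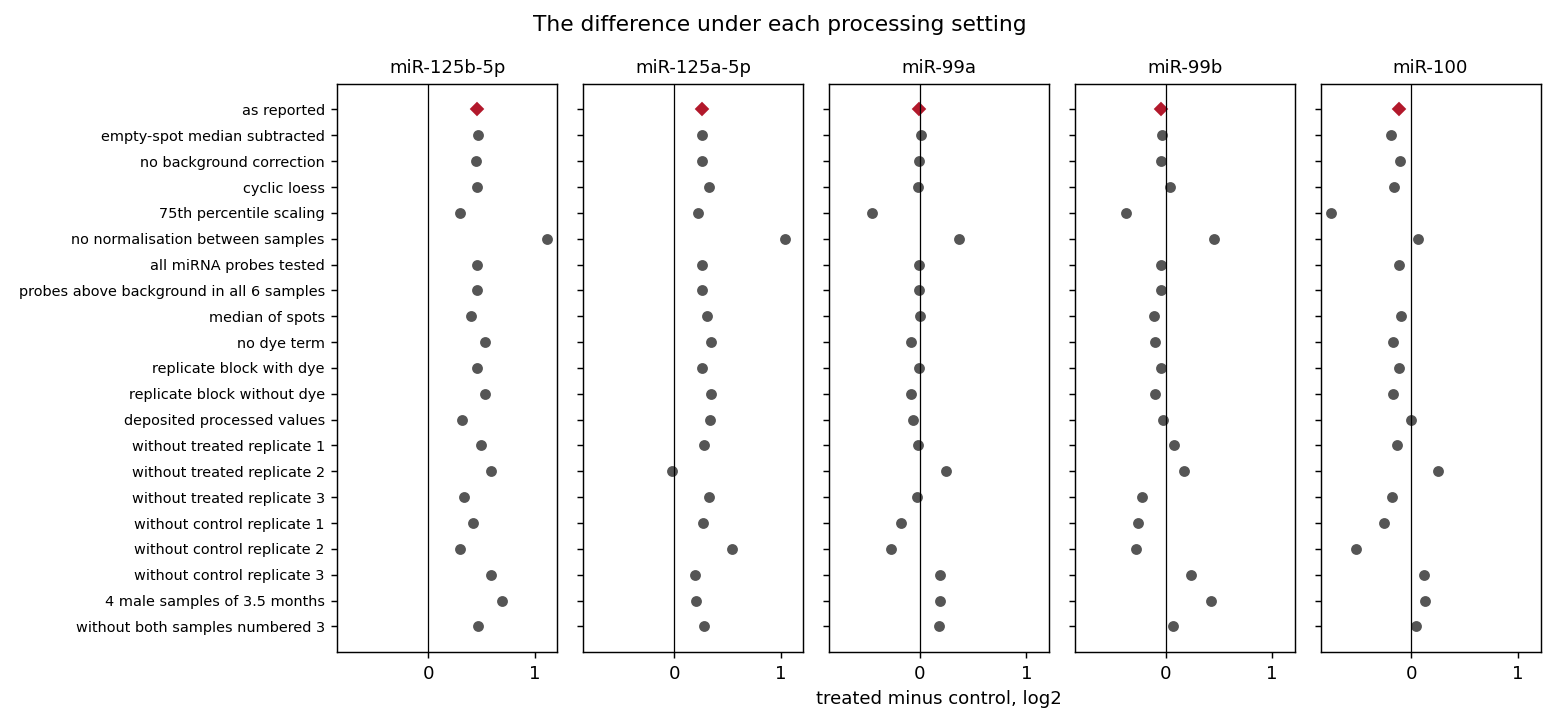
Treated minus control difference (log2) of each member under every processing setting and sample subset, the red diamond the value as reported and the grey circles the alternatives, with a line at 0. MiR-125b-5p lies between 0.30 and 1.12 throughout, miR-125a-5p is below 0 without treated replicate 2, and miR-99a, miR-99b and miR-100 lie on both sides of 0.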

How the data were processed

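Per the labels' protocols, small RNA was tailed with poly(A), tagged and stained with Cy3 or Cy5 by a service provider. Per the file headers, each sample's deposited table gives the mean intensity of 3968 spots on a linear scale, with 5 spots for each of 599 miRNA probes and 669 empty spots. The authors' deposited table of processed intensities holds a whole number per miRNA, with sample medians of 17 to 19. Sources used here do not give its normalisation, so scale and centring stay unknown. Each of its columns correlated best with its own sample's scanner values (Spearman's rho 0.995 to 0.999 across tested miRNAs, which are not independent replicates), and it served as an alternative.

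Spots were corrected with normexp (offset 50), averaged as log2 over each probe and quantile-normalised over all 599 probes in R 4.3.3 with limma 3.58.1, which was tested on simulated data. Limma (lmFit, eBayes, two-sided) compared treated with control mice with a dye term, and p-values were adjusted by Benjamini-Hochberg over all 197 tested miRNAs. This fit held no replicate block, which served only as an alternative. Same-numbered samples were compared as pairs because they deviated together from their groups' means. Across tested miRNAs r was 0.447, 0.460 and 0.781 for like numbers, against -0.572 to 0.256 for unlike ones. The pairing was thus read from these same data. Centring on the means of 3 samples also lowers the values for unlike numbers when like numbers agree. The labels do not say what a number marks. Named miRNAs are the 5 members, their relatives, other strands and let-7 cluster partners, the 3 most alike miRNAs of each member, and cell type markers. Members and lists were chosen with earlier results of these data known. Sequences are the array's, matched to RefSeq (GRCm38.p6), and no build is named by the submitters.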

Additional observations from a re-analysis of the deposited data

How the results depend on the processing

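No member and no other tested miRNA passed under any of the 20 alternatives, which gave 0 calls each in limma. The miR-125b-5p difference was above 0 in all 20, from 0.30 (75th percentile scaling) to 1.12 (no normalisation between samples), and from 0.30 to 0.59 when a replicate was left out. Those 2 scalings moved the median of all tested miRNAs to -0.53 and 0.29. MiR-125a-5p ran from -0.022 to 0.54 over the left-out replicates. Over these, miR-99a ran from -0.27 to 0.25, miR-99b from -0.28 to 0.24 and miR-100 from -0.52 to 0.25. Without normalisation between samples, miR-99a lay at 0.37, miR-99b at 0.45 and miR-100 at 0.062. MiR-99a lay at 0.012 after subtraction of the empty-spot median, and miR-99b at 0.044 with cyclic loess. Chosen after seeing the data, the 4 male samples gave 0.19, 0.43 and 0.13 for miR-99a, miR-99b and miR-100, and leaving out both samples numbered 3 gave 0.18, 0.071 and 0.041. The cause of these turns was not tested.

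Of the contrasts between members, miR-125b-5p over miR-99a, miR-99b and miR-100 and miR-125a-5p over miR-99a and miR-100 stayed above 0. MiR-99a minus miR-99b turned to -0.067 with cyclic loess, -0.11 with 75th percentile scaling and -0.11 without normalisation, -0.10 with the deposited values and -0.23 in the male samples, and ran from -0.14 to 0.21 over the left-out replicates. With the deposited values, miR-125b-5p minus miR-125a-5p was -0.032 and miR-99a minus miR-100 was -0.029. MiR-125a-5p minus miR-99b was -0.22 in the male samples. Over the left-out replicates it ran from -0.029 to 0.77, miR-125b-5p minus miR-125a-5p from -0.025 to 0.42, and miR-99b minus miR-100 from -0.066 to 0.24.

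The replicate block with dye left the difference of each member as it was (0.45 for miR-125b-5p) and changed no call. Without the dye term it gave 0.54 for miR-125b-5p, with an adjusted p = 0.413 in limma. The exact sign-flip test over the 3 pairs, as the replicate block of the contrasts, cannot give less than p = 0.25. MiR-100 was not above background in all 6 samples, so the filter that asks for this gave it no value.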
